A study of Homo sapiens with 5 samples.

Results

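The promoters described here are CpG-island promoters of SKMEL-147 melanoma cells at which no PHF8 peak was called. An autosomal protein-coding gene counted as having a CpG-island promoter when the 500 bp centred on the 5′ end of its gene record had a GC content of at least 50% and an observed/expected CpG ratio of at least 0.6. It counted as peak-free when no peak of any of 3 PHF8 peak lists overlapped the 1 kb on either side of any of its annotated transcription start sites (TSSs). Of 19229 autosomal protein-coding genes, 11437 had a CpG-island promoter, and 1863 of these were peak-free. The genes were thus chosen by the called peaks together with GC content and CpG ratio, and their number is a description of the lists and not a test.

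SKMEL-147 is an established human melanoma cell line, and chromatin immunoprecipitation followed by sequencing (ChIP-seq) was performed on it with an anti-PHF8 antibody in 3 replicates named A, B1 and B2. The series holds 5 samples, the other 2 being input libraries without antibody, which are not analysed here. The labels give no guide RNA, drug or time point for any of the 5 samples, although the design text of the series speaks of a PHF8 loss-of-function model made in the same line, so all values come from 1 group and no condition was compared. The study asked which genes PHF8 binds in melanoma cells, and the peak lists held 21506, 20882 and 20120 peaks in A, B1 and B2.

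PHF8, a demethylase with a Jumonji C domain, reads trimethylated lysine 4 of histone H3 through its PHD finger and takes off methyl groups linked to silencing. CpG islands are stretches of DNA that kept their CpG dinucleotides and that mark the promoters of most housekeeping genes and of many developmental genes. An active CpG island usually carries trimethylated lysine 4, whereas an inactive island may be covered by Polycomb proteins or carry DNA methylation. Neither histone marks nor DNA methylation nor transcription were measured in the data used here.

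To show what a CpG-rich promoter without a PHF8 peak looks like, the 200 bases upstream of the gene-record 5′ end are printed for the 3 peak-free genes with the most CpG dinucleotides, with each CpG in capitals. The coordinates are those of GRCh37, the build called hg19 in the study, and each sequence runs 5′ to 3′ along the gene. IKZF1 encodes the lymphoid transcription factor Ikaros, SALL3 a zinc finger transcription factor of development, and ENTREP2 a membrane protein.
IKZF1, chr7:50343464-50343663, plus strand: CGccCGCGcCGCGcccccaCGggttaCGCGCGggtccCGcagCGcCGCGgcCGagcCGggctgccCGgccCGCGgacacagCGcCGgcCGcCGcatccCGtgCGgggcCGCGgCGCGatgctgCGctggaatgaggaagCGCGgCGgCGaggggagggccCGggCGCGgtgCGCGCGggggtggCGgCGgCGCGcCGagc
SALL3, chr18:76739618-76739817, plus strand: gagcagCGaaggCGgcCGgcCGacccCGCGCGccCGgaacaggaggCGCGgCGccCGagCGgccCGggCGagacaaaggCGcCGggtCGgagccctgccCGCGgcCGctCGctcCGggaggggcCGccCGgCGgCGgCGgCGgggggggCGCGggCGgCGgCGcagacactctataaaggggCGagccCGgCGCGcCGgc
ENTREP2, chr15:29863184-29863383, minus strand: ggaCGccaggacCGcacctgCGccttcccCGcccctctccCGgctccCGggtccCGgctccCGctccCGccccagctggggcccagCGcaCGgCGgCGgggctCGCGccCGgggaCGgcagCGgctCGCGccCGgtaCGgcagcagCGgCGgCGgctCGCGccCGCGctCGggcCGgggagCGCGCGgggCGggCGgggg
These runs held 44, 39 and 36 CpG dinucleotides and lie upstream of the annotated gene, overlapping no other gene.

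Several peak-free promoters had a TATA box, the letters TATAAA, on the sense strand within the 50 bp upstream of the gene-record 5′ end. It is shown in capitals within the 60 bases upstream of NAT8L, which encodes the enzyme that makes N-acetylaspartate in neurons, and of NRARP, a target and inhibitor of Notch signalling.
NAT8L, chr4:2060994-2061053, plus strand: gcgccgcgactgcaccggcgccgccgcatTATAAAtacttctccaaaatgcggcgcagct
NRARP, chr9:140196724-140196783, minus strand: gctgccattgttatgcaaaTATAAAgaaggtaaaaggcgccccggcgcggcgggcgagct
SALL3, printed above, held the same letters in this stretch.

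Others held one part of the long binding motif of REST, the repressor of neuronal genes outside neurons. It is in capitals, on either strand, in the 150 bases upstream of KCNK3, which encodes a leak potassium channel.
KCNK3, chr2:26915440-26915589, plus strand: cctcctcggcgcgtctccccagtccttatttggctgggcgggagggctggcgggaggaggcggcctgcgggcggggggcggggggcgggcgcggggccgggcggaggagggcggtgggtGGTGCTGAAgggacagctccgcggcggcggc
KCNK3 is peak-free, with the nearest peak of the 3 lists 3.50, 3.57 and 3.52 kb from its TSS in A, B1 and B2.

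For contrast, 3 CpG-island promoters with a PHF8 peak in every replicate are shown with a motif that was scarce among the peak-free ones: an ETS site upstream of BTAF1, which encodes a TBP-associated ATPase, an NRF1 core upstream of CARNMT1, a carnosine methyltransferase gene, and a YY1 site upstream of CCDC174. Each is the 80 bases upstream, with the named motif in capitals. They were chosen after their values were seen, as the genes with the strongest peaks among those with such a motif there, a TSS number of at most 5, no divergent partner and no other gene in the upstream stretch.
BTAF1, chr10:93683447-93683526, plus strand: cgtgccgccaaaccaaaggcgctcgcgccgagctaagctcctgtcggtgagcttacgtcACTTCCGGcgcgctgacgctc
CARNMT1, chr9:77643340-77643419, minus strand: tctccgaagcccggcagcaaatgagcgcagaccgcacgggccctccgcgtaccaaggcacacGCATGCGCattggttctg
CCDC174, chr3:14693189-14693268, plus strand: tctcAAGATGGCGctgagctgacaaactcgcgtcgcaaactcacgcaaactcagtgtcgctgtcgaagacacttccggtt
The fold enrichment of their strongest peak in A, B1 and B2, which is ChIP signal over local background at the summit, was 51.5, 34.8 and 33.5 at BTAF1, 56.8, 37.03 and 35.8 at CARNMT1, and 47.2, 31.2 and 31.2 at CCDC174. ATXN1L and IST1, which share a peak and had the highest mean rank among the bound promoters eligible for printing, are not shown because the upstream bases lie in another gene, AP1G1 for ATXN1L and ATXN1L for IST1.

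The 1863 peak-free genes made up 16.3% of the 11437 CpG-island promoter genes, with a 95% Wilson interval of 15.6% to 17.0% that covers counting error only. Promoters without CpG-island sequence were peak-free far more often, at 5110 of 7792 genes or 65.6%, and over all 19229 genes the figure was 6973 or 36.3%. These 3 percentages are the background for every count of peak-free genes given here, and since the peaks chose the genes, nothing is read from the numbers themselves. A further 9306 CpG-island promoter genes had a peak in all 3 replicates and are called bound below. Counted in 1 replicate at a time, 1913 CpG-island promoter genes lacked a peak in A, 2028 in B1 and 2066 in B2, which are 16.7%, 17.7% and 18.1% and average 17.5% ± 0.697 (SD, n = 3). The replicates therefore differed little in how many CpG-island promoters they left without a peak.

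Only 268 CpG-island promoter genes stood between the classes, 150 with a peak in 1 replicate and 118 with a peak in 2. Their peaks were weak. In A, 218 of these genes had a peak, with a median fold enrichment of 6.23 against 34.9 at bound promoters. In B1 the 103 such genes had a median of 4.72 against 20.5, and in B2 the 65 had 4.64 against 19.4. The strongest peak at any of these intermediate promoters had 13.6-fold enrichment in A, 7.88-fold in B1 and 6.87-fold in B2, below the median of bound promoters in the same replicate. By definition these promoters lacked a called peak in at least 1 replicate, which favours weak peaks. The strongest peak over all TSSs of a gene was taken, and the median number of TSSs was 5 at intermediate and 7 at bound genes. How far these points set the difference was not tested. The median fold enrichment was higher in A than in B1 and B2, at 18.9, 11.8 and 11.8 over all peaks, so fold enrichment is compared within a replicate only. Replicate A alone supplied the peak for 109 of the 150 genes with a peak in a single replicate, B1 for 35 and B2 for 6.

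At the borders of the rule, CLEC4C, IL20RA and MAB21L2 sat exactly on the GC threshold of 50%, while ZNF311 fell just outside at 49.8% and CSRP3 and EVX2 at 49.6%. For the observed/expected CpG ratio, GFY, DMRTB1 and RPSA2 lay just inside at 0.6002, 0.6005 and 0.6005 and FAM90A11P, GCM2 and ENSG00000268361 just outside at 0.5997, 0.5994 and 0.5993. The smallest distance from a TSS to a peak among peak-free genes was 1001 bp at NRTN, followed by 1050 bp at GADD45G and 1069 bp at ZNF467. The largest distances among genes with a peak were 988 bp at CDH4, 904 bp at MAB21L1 and 891 bp at CATSPERZ. NRTN, which encodes the neurotrophic factor neurturin, thus missed a peak by 1 base in A and had its nearest peak at 1.06 kb in B1 and 1.15 kb in B2.

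The gene content of the peak-free class differed between functional families. In the families of neuronal excitability, which are ion channels, neurotransmitter receptors and synaptic proteins, 133 of 189 CpG-island promoter genes or 70.4% were peak-free and 44 were bound. Of the secreted WNT, FGF, BMP and GDF signals, 19 of 32 or 59.4% were peak-free, and of the developmental transcription factors 119 of 263 or 45.2%. Among 324 housekeeping genes, in contrast, 7 or 2.16% were peak-free and 316 were bound. All of these shares stand beside the 16.3% over all CpG-island promoters, and no test was run on them because the same peaks define the class. Of the 1863 peak-free genes, 459 belonged to at least 1 of 33 gene lists and 1404 to none.

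**Figure D1:**
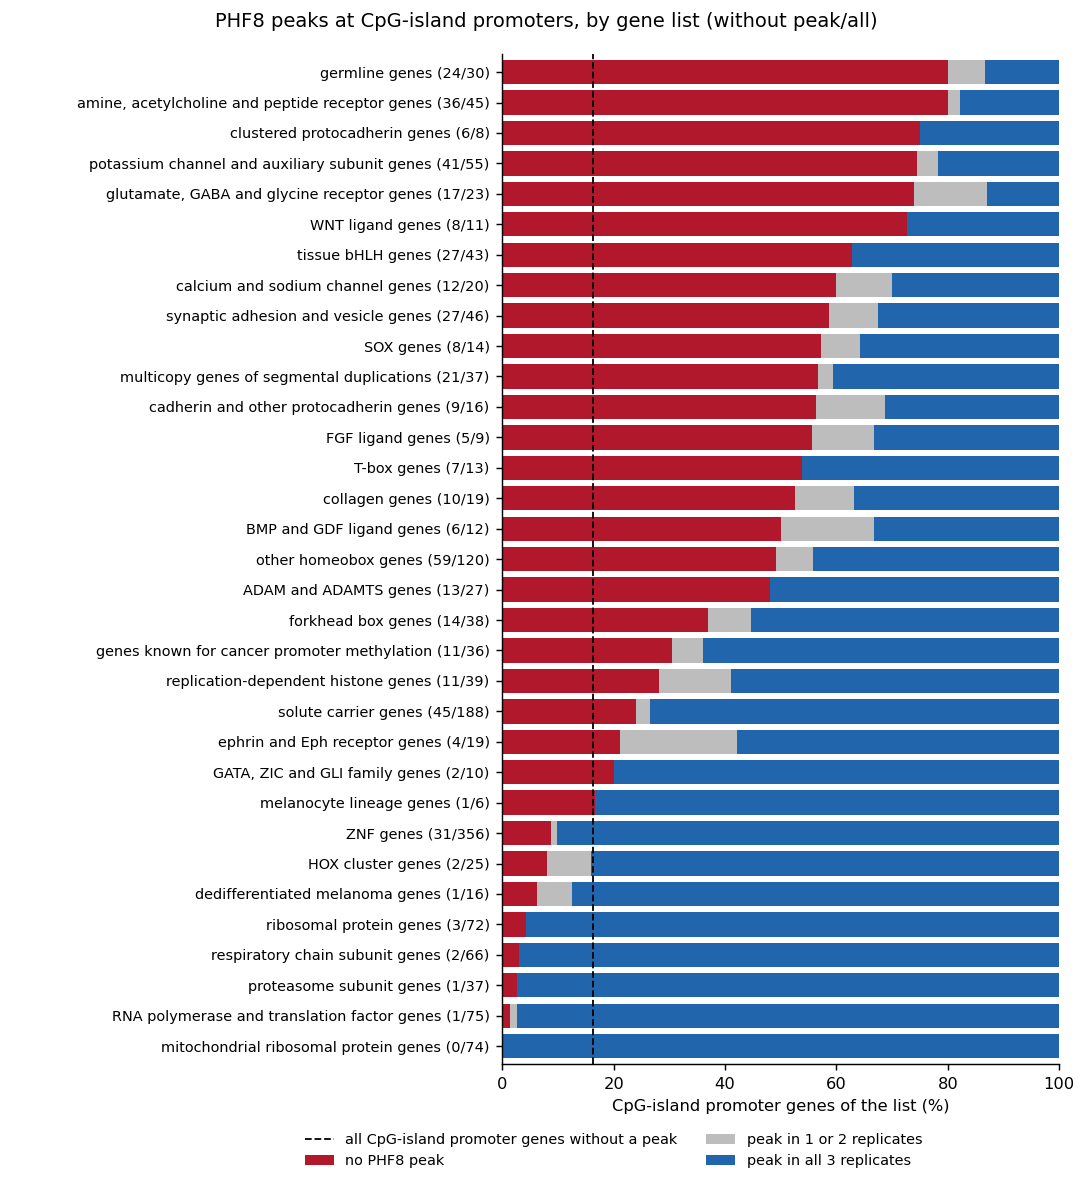
Share of CpG-island promoter genes (x axis, %) of 33 gene lists (y axis) without a PHF8 peak (red), with a peak in 1 or 2 replicates (grey) and with a peak in all 3 replicates (blue); the numbers after each name give peak-free genes over all CpG-island promoter genes of the list, and the dashed line is the 16.3% of all CpG-island promoter genes. The lists run from 80% peak-free for germline genes and for amine, acetylcholine and peptide receptor genes at the top down to 0 of 74 mitochondrial ribosomal protein genes at the bottom.

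Among the neuronal families, the receptors for amines, acetylcholine and peptides had 36 of 45 CpG-island promoters without a peak, a share of 80% with a Wilson interval of 66.2% to 89.1%. They included the adrenergic receptor gene ADRA2C, the histamine receptor gene HRH2 and the dopamine receptor gene DRD4, with observed/expected CpG ratios of 1.01, 0.980 and 0.977. DRD4 had its nearest peak at 21.3 kb in all 3 replicates. The exceptions that were bound include ADRB1, which encodes an adrenaline receptor of the heart.

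Potassium channel genes and their auxiliary subunits followed with 41 of 55, or 74.5% (61.7% to 84.2%). KCND3, KCNA7 and KCNJ4, which encode pore-forming subunits, had the highest observed/expected CpG ratios of the peak-free genes of the list, with 1.09, 1.07 and 1.03. HCN2, a pacemaker channel gene on chromosome 19 with its 5′ end at position 589881, had 91 CpG dinucleotides in 500 bp, a GC content of 87.6% and a CpG-rich stretch of 2500 bp, and the nearest peaks lay 16.4, 16.7 and 16.5 kb away. Bound channel genes included KCNMA1 and KCNN2.

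Receptors for glutamate, GABA and glycine were peak-free at 17 of 23 CpG-island promoters (73.9%, 53.5% to 87.5%), among them the metabotropic GABA receptor gene GABBR2 with a ratio of 1.05 and the glutamate receptor genes GRIK3 and GRIN2C with 0.972 and 0.927. Calcium and sodium channel genes were peak-free at 12 of 20, led by CACNA2D3, CACNG4 and CACNA1H with 1.00, 0.992 and 0.975. Genes of synaptic adhesion and vesicles were peak-free at 27 of 46 (58.7%, 44.3% to 71.7%), with RIMS4, NPTX2 and CNTN4 at 1.02, 1.01 and 1.00, while the syntaxin gene STX1A was bound.

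The transcription factor families were mixed. Homeobox genes outside the HOX clusters were peak-free at 59 of 120 CpG-island promoters (49.2%, 40.4% to 58.0%) and bound at 53. NKX6-2, POU3F1 and CUX2, factors of neural development, had the highest observed/expected ratios of the peak-free ones, with 1.10, 1.05 and 1.01, and the CpG-rich stretch at NKX6-2 measured 5300 bp. Bound relatives included DLX1, DLX2, MEIS1, MSX1 and MSX2. The HOX clusters stood apart from the other homeobox genes, since 21 of 25 CpG-island promoter genes were bound, 2 were in between and 2, HOXC12 and HOXD12, were peak-free. HOXD12 had a peak 2.06, 2.05 and 1.75 kb from a TSS in A, B1 and B2, and HOXC12 at 14.98, 14.93 and 14.96 kb.

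Basic helix-loop-helix genes of tissue differentiation were peak-free at 27 of 43 (62.8%, 47.9% to 75.6%). TCF15, HES5 and TAL1 led them in observed/expected ratio with 1.05, 1.02 and 0.986, and the list also held MYOD1 and MYF5 of skeletal muscle and NEUROD1 and NEUROG1 of neurons. The 16 bound genes included TWIST1 and TWIST2, factors known for mesenchymal differentiation, and NEUROG2, OLIG2, SIM2 and HAND2 as well. SOX genes were peak-free at 8 of 14, with SOX8, SOX18 and SOX30 at 0.988, 0.902 and 0.891, while SOX9, SOX5 and SOX11 were bound and SOX2 was in between. T-box genes were split into 7 peak-free and 6 bound, the former led by TBXT, the brachyury gene, TBX20 and TBX1 with 0.905, 0.860 and 0.859. Of 38 forkhead genes, 14 were peak-free, led by FOXI3, FOXQ1 and FOXL3 with 0.910, 0.876 and 0.872. In the GATA, ZIC and GLI families 2 of 10 were peak-free, GATA5 with 0.819 and GLI2 with 0.752.

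Of the secreted signals, 8 of 11 WNT genes were peak-free, led by WNT11, WNT6 and WNT3A with observed/expected ratios of 1.05, 0.986 and 0.919. The 3 bound ones were WNT10A, WNT5B and WNT9A. FGF22, FGF18 and FGF3 led the 5 peak-free of 9 FGF genes with 1.03, 0.920 and 0.918, and FGF2, FGF5 and FGF9 were bound. GDF1, BMP8A and GDF7 led the 6 peak-free of 12 BMP and GDF genes with 0.996, 0.979 and 0.882. Lists written after the gene symbols were seen added all 4 R-spondin genes, which encode agonists of WNT signalling, and both hedgehog ligand genes with a CpG-island promoter, IHH and SHH.

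In cell adhesion and guidance, 19 of 43 genes or 44.2% were peak-free. Among the cadherins and single protocadherins, 9 of 16 were, led by CDH23, CDH22 and CDH15 with ratios of 1.04, 0.827 and 0.749. CDH1, which encodes E-cadherin of epithelia and keratinocyte contacts, belonged to them, with peaks of fold enrichment 41.9, 42.3 and 40.5 no nearer than 20.2 kb in every replicate. The bound genes of this list were CDH2, which encodes N-cadherin, CDH13, CDH24, PCDH9 and PCDH10. CDH4 and CDH6 were in between. Clustered protocadherins were peak-free at 6 of 8, 4 of which had windows with fewer than 90% unique 32-mers, among them PCDHGB6 at 69.5% and PCDHGB7 at 72.1%, while the window of PCDHGC4 was 100% unique. Of 19 ephrin and Eph receptor genes 4 were peak-free, EPHA8, EFNA2, EPHA1 and EPHA3, the first 3 with ratios of 1.01, 0.968 and 0.722.

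Matrix genes had peak-free shares within the range of these families, and solute carrier genes a lower one than most of them. Collagen genes were peak-free at 10 of 19 (52.6%), led by COL26A1, COL8A2 and COL23A1 with ratios of 0.887, 0.875 and 0.859, whereas COL4A1, COL5A1 and COL18A1 were bound. ADAM and ADAMTS genes, which encode membrane and matrix proteases, were peak-free at 13 of 27 (48.1%). ADAMTS2, ADAMTS8 and ADAMTS10 led them with 0.999, 0.919 and 0.910, and ADAM9, ADAM10 and ADAM12 were bound. Solute carrier genes were peak-free at 45 of 188 (23.9%, 18.4% to 30.5%), with SLC24A3, SLC6A20 and SLC10A4 at 1.06, 1.04 and 1.03, and the peak-free ones included the dopamine, noradrenaline and serotonin transporter genes SLC6A3, SLC6A2 and SLC6A4.

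Genes of meiosis and of the germ line had the same share of peak-free promoters as the amine and peptide receptors, 24 of 30 or 80% (62.7% to 90.5%). SLC25A31, the germ cell ADP/ATP carrier gene, BOLL and MEIOB had the highest observed/expected ratios of these, with 0.993, 0.944 and 0.924, and they included the vasa gene DDX4, the synaptonemal complex genes SYCP1 and SYCP3, and PIWIL1, PIWIL2 and PIWIL3. The bound exceptions were PIWIL4, SMC1B, STAG3 and SYCE2.

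Among genes known for promoter methylation in tumours, 11 of 36 were peak-free (30.6%, 18.0% to 46.9%). NEUROG1, BMP3 and SFRP5 had the highest observed/expected CpG ratios of these, with 0.862, 0.829 and 0.826, and the others were CACNA1G, CDH1, CDKN2B, GATA5, MAL, RASSF10, SFRP2 and WIF1. SFRP2, SFRP5 and WIF1 encode secreted WNT inhibitors. CDKN2B, which encodes the cell cycle inhibitor p15, was peak-free with its nearest peaks at 30.7, 30.8 and 30.8 kb, whereas its neighbour CDKN2A was bound. Bound genes of this list also included BRCA1, MGMT and RASSF1. Methylation was not measured here, and a peak-free window does not show that a promoter was methylated.

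The melanoma marker lists were counted by promoter class. Over all genes, 16.3% of CpG-island promoters and 65.6% of the others were peak-free. The melanocyte lineage list, with 1 of 6 and 10 of 16, lay near these shares, so no trait of the lineage is read from it. Of 22 melanocyte lineage genes, 16 had no CpG-island promoter, and 10 of these had no peak in any replicate. Of the 6 with a CpG-island promoter, MITF, PAX3, RAB27A, RAB38 and TFAP2A were bound and OCA2, a melanosomal transporter gene, was peak-free with a weak peak of fold enrichment 8.97, 5.80 and 4.27 at 2.65, 2.68 and 2.73 kb in A, B1 and B2. Of 23 genes of dedifferentiated melanoma, 7 had no CpG-island promoter, and 0 of these 7 lacked a peak in every replicate. Of the 16 with a CpG-island promoter, 14 were bound and EDN1 was in between. The remaining gene, F2RL1, a protease-activated receptor gene with a ratio of 0.941, was peak-free with no peak within 100 kb in any replicate. A peak list shows binding and not expression, so these counts do not describe the expression of the markers.

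The 7 peak-free housekeeping genes included RPL10L and RPL3L of 72 ribosomal protein genes, PSMA8 of 37 proteasome genes, COX6B2 and COX7A1 of 66 respiratory chain genes, and POLR2J of 75 genes of RNA polymerases and translation factors. RPL10L and PSMA8 are paralogs known from the testis, RPL3L from striated muscle, COX6B2 from sperm and COX7A1 from heart and skeletal muscle, so that these 5 are tissue-restricted copies of a housekeeping gene. RPL10L had no peak within 1 Mb of its TSS in any replicate (1024 kb in each), and the nearest to PSMA8 lay at 42.3 kb in each. The window of POLR2J consisted of 26.2% unique 32-mers, and that of RPL3L of 65.03%. All 74 mitochondrial ribosomal protein genes with a CpG-island promoter were bound, which allows a peak-free share of up to 4.93% by the Wilson interval.

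Zinc finger genes of the ZNF series were also mostly bound, with 31 of 356 peak-free (8.71%, 6.20% to 12.1%). ZNF239, ZNF541 and ZNF296 led the peak-free ones with ratios of 1.02, 0.995 and 0.987. Replication-dependent histone genes were peak-free at 11 of 39, of which 6 had windows with fewer than 90% unique 32-mers. H2AC19 had the highest observed/expected ratio of the peak-free ones, with 1.18, and had no unique 32-mer at all, while H3C8 and H3C11, with 1.04 and 1.01, were 99.8% and 97.7% unique.

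Further families were noticed only after the peak-free symbols had been read, so their shares are illustrations. Neuropeptide and peptide hormone precursor genes were peak-free at 25 of 27, including TAC1, PROK2 and VGF with ratios of 1.04, 1.03 and 1.00, and NMB and NPW were bound. Neurofilament and internexin genes were peak-free at 4 of 4. Endothelial genes, among them FLT4, FLT1, SOX18 and KDR, were peak-free at 11 of 12, and S1PR1 was the bound one. Genes of axonemes and ciliary motility were peak-free at 29 of 71, with SPAG6, DNAH10 and DNAH9 at 1.05, 0.966 and 0.924. Haemoglobin genes of the alpha cluster were peak-free at 4 of 4, although 3 of these windows had fewer than 90% unique 32-mers. Imprinted genes were split evenly, with 9 of 18 peak-free, among them DIO3, NDN and MEST.

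Base composition separated peak-free from bound CpG-island promoters only in part. The median GC content of the 500 bp window was 69.6% (quartiles 63.3% and 74.8%) at peak-free and 67.0% (61.6% and 72.6%) at bound promoters, so the peak-free ones were slightly richer in G and C. Their observed/expected CpG ratio was lower, with a median of 0.805 (0.714 and 0.900) against 0.855 (0.772 and 0.936). As the 2 measures moved in opposite directions, the number of CpG dinucleotides had the same median, 47 in 500 bp, in both classes. The CpG-rich stretch around the 5′ end, measured in 200 bp windows moved by 50 bp, had medians of 850 and 900 bp, and 4.46% of peak-free and 3.02% of bound promoters had a stretch over 2 kb.

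Binned by these measures, the peak-free share fell from 26.7% (24.5% to 29.0%) of 1475 promoters with an observed/expected ratio of 0.6 to 0.7, through 20.1%, 13.8% and 13.3% in the next 3 bins, to 9.17% (7.63% to 10.99%) of 1134 promoters at 1.0 or more. By GC content it was lowest at 60% to 65%, with 11.7%, and highest at 80% or more, with 28.3% (24.5% to 32.4%) of 502 promoters. Both the CpG-poorest and the most GC-rich promoters were thus peak-free more often than the 16.3% of all CpG-island promoters. The 5 peak-free promoters with the most CpG dinucleotides, IKZF1 and SALL3 with 98 each, ENTREP2 with 93, and BEND7 and HCN2 with 91 each, show that very high CpG content occurred without a peak.

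**Figure D2:**
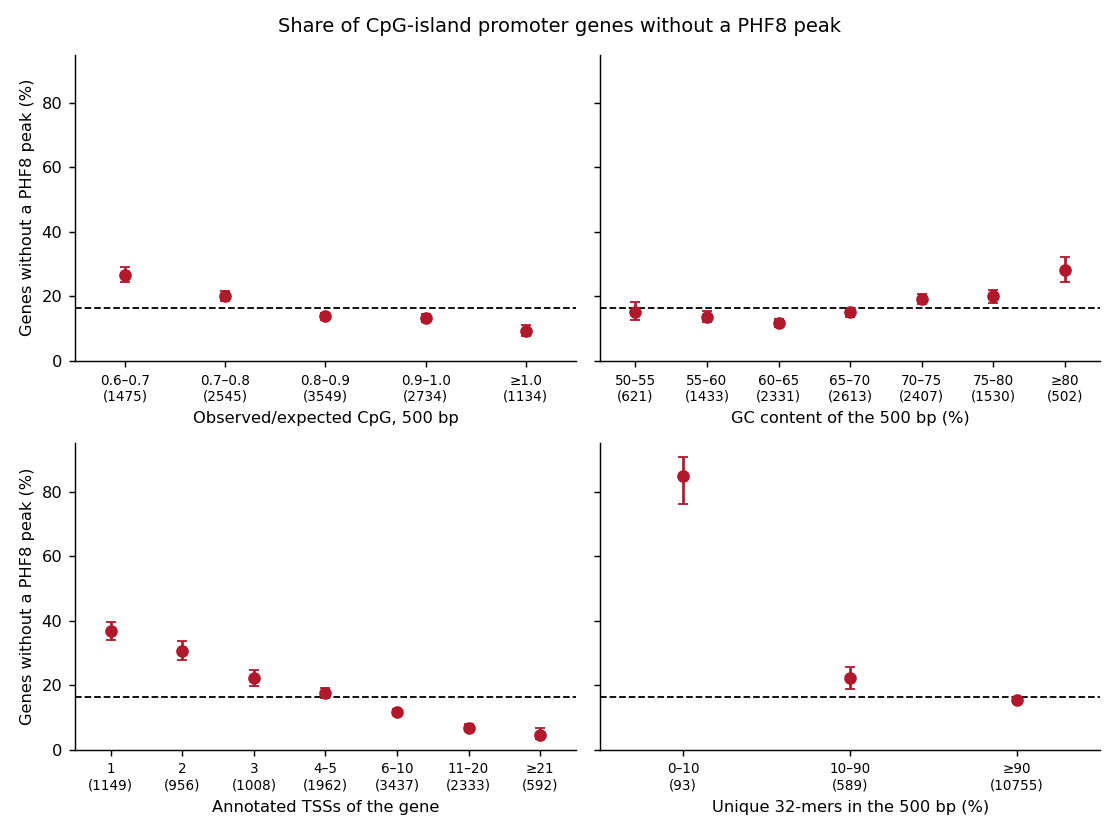
Percentage of CpG-island promoter genes without a PHF8 peak (y axis) by observed/expected CpG ratio, GC content, number of annotated TSSs of the gene and share of unique 32-mers in the 500 bp window (x axes, with the number of genes of each bin in parentheses); bars are 95% Wilson intervals and the dashed line is 16.3%. The share fell from 26.7% to 9.17% along the CpG ratio and from 36.6% to 4.56% along the number of TSSs, and stood at 84.9% where under 10% of 32-mers were unique.

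Gene structure differed more than base composition. Peak-free genes had a median of 3 annotated TSSs against 7 at bound genes, and 421 of them or 22.6% had a single TSS against 688 or 7.39%. The peak-free share fell with every bin of TSS number, from 36.6% (33.9% to 39.5%) of 1149 genes with 1 TSS to 4.56% (3.15% to 6.55%) of 592 genes with 21 or more. The rule looks for a peak at every annotated TSS, so that a gene with more TSSs has more places to acquire one, and how far this sets the trend was not tested. When the gene-record 5′ end alone was searched, 2069 genes were peak-free and the difference in the median number of TSSs was 3 in place of 4, and of the bound genes 172 or 1.85% had no peak at that end.

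Divergent promoters, where a protein-coding gene on the opposite strand starts within 1 kb upstream, were rare among peak-free genes. They numbered 82 or 4.40%, against 2122 or 22.8% of bound genes. Conversely, 3.69% (2.98% to 4.56%) of 2222 divergent CpG-island promoters were peak-free and 19.3% (18.5% to 20.1%) of the 9215 others. Among genes with a single TSS the shares were 10.3% of 156 and 40.8% of 993. By definition the window of a divergent gene also covers a TSS of its partner, so a peak at the partner counts for both. How far this sets the difference was not tested.

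By gene length, the peak-free share was 23.3% below 10 kb, 13.4% from 10 to 50 kb, 13.5% from 50 to 100 kb, 16.6% from 100 to 500 kb, and 30.1% (24.0% to 36.9%) of 193 genes of 500 kb or more. Both the shortest and the longest genes were peak-free more often than those between. Across chromosomes the share ranged from 13.1% of 381 genes on chromosome 14 to 21.2% of 565 genes on chromosome 7.

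Repeated sequence accompanied part of the class. A window in which few 32-mers occur once in the genome holds few positions to which a short read can be assigned. Of 93 CpG-island promoters with under 10% unique 32-mers, 79 or 84.9% (76.3% to 90.8%) were peak-free, against 22.1% of 589 promoters with 10% to 90% and 15.4% of 10755 with at least 90%. Of the 1863 peak-free genes, 209 or 11.2% had fewer than 90% unique 32-mers, and 56 had none, against 451 or 4.85% and 4 of the bound genes. Multicopy genes of segmental duplications were peak-free at 21 of 37, and all 21 had fewer than 90% unique 32-mers, among them RGPD6 at 14.1%, RGPD2 at 13.6% and POTEI with none. The part of read assignment in these absences was not tested. Leaving out all windows below 90% left 1654 peak-free genes.

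Sequence motifs divided the classes in both directions. They were sought as exact letters on both strands of the 500 bp window, no searched motif contained another, and a match describes letters and not an occupied site. The GC box GGGCGG of SP and KLF factors served as a measure of shared background and was found in 87.2% of peak-free and 87.2% of bound promoters, and in 62.7% of the windows of all autosomal protein-coding genes. It did not separate the classes.

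The ETS site, written CCGGAAGT, was in 31 peak-free windows or 1.66%, in 11.2% of bound windows and in 5.98% of all windows. Of 1079 CpG-island promoters with this site, 2.87% were peak-free, against 17.7% of those without. The NRF1 core, with the letters GCATGCGC, was in 2.04% of peak-free and 7.62% of bound windows, and in 4.28% of all. The YY1 site, spelled AAGATGGCG, was in 0.698% and 5.42%, and in 2.91% of all. At least 1 of these 3 motifs was in 80 peak-free windows or 4.29% and in 22.1% of bound windows. CpG-island promoters with one of them were thus peak-free in 3.72% of cases and those with none in 19.2%.

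Other motifs of ubiquitous factors were also in a smaller share of peak-free than of bound windows. The CCAAT box of NF-Y was in 33.1% of peak-free, 42.5% of bound and 44.6% of all windows. The cyclic AMP response element TGACGTCA was in 2.58%, 4.04% and 2.56%. The E-box CACGTG was in 11.6%, 13.8% and 11.01%, and the ZBTB33 palindrome core CTCGCGAG in 1.77%, 2.75% and 1.59%. The ZNF143 core, searched as ACTACAATT, was in 1 peak-free window (0.0537%), in 68 bound windows (0.731%) and in 0.504% of all.

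The TATA box and the REST partial motif went the other way. The letters TATAAA were in 9.50% of peak-free and 5.51% of bound windows, and in 14.0% of all. On the sense strand within the 50 bp upstream of the 5′ end, where they are printed for NAT8L and NRARP above, they were in 68 peak-free promoters or 3.65%, in 1.01% of bound ones and in 3.42% of all. Of 171 CpG-island promoters with such a TATA box, 39.8% were peak-free, against 15.9% of those without. The REST partial motif, the letters TTCAGCACC, was in 32 peak-free windows or 1.72%, in 0.602% of bound windows and in 0.853% of all, and 34.4% of the 93 CpG-island promoters that held it were peak-free. No test was run on any of these shares, because the peaks define the classes and neighbouring genes can share a window.

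**Figure D3:**
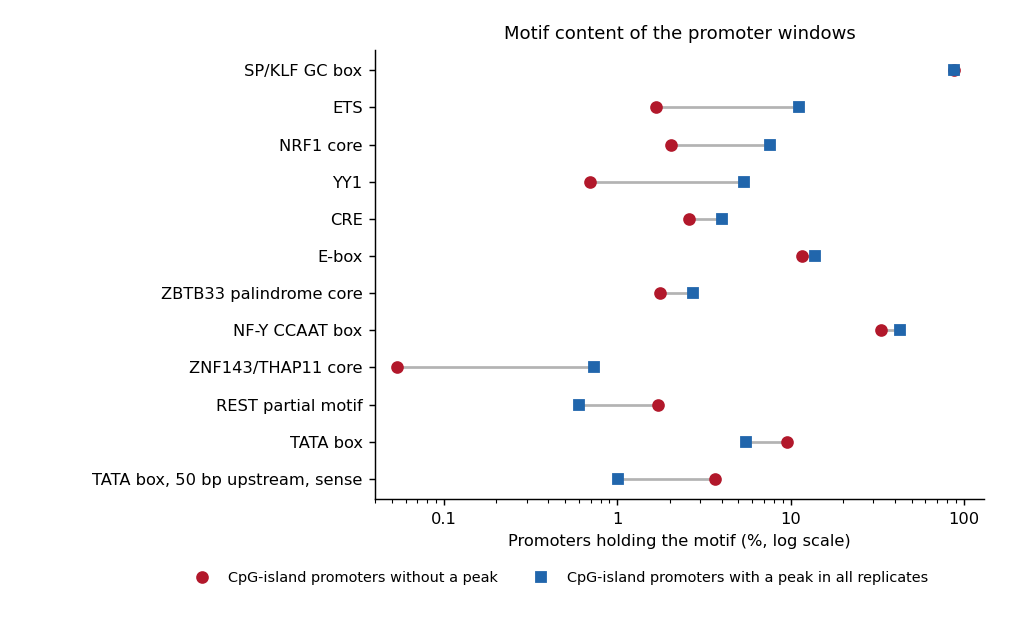
Percentage of promoters (x axis, log scale) whose 500 bp window held each motif (y axis), for peak-free CpG-island promoters (red circles) and CpG-island promoters with a PHF8 peak in all replicates (blue squares); matches were counted on either strand except in the last row, which counts TATA boxes on the sense strand within 50 bp upstream. ETS, NRF1, YY1 and ZNF143 motifs lay to the left for peak-free promoters and TATA boxes and REST partial motifs to the right, while the GC box coincided at 87.2%.

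The surroundings of peak-free promoters were next described with peaks beyond 1 kb, which the rule did not use. The median distance from a TSS to the nearest peak was 49.6 kb in A, 53.4 kb in B1 and 54.3 kb in B2. Peak-free promoters without CpG-island sequence had 55.6, 59.6 and 61.4 kb, a little farther in each replicate. Within 5 kb lay a peak for 117, 112 and 104 of the 1863 genes, and within 100 kb for 69.7%, 67.8% and 67.5% of them. For IKZF1 the nearest peaks were at 58.2, 58.3 and 58.3 kb, for SALL3 at 74.5, 74.5 and 74.6 kb, and for WNT2 at 369 kb in each replicate.

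**Figure D4:**
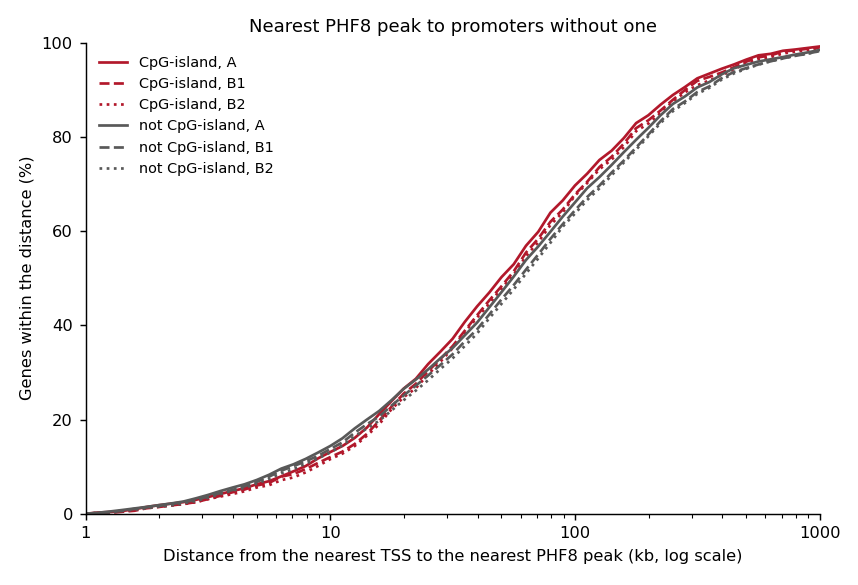
Cumulative percentage of genes (y axis) whose nearest PHF8 peak lies within a given distance of a TSS (x axis, kb, log scale), for peak-free CpG-island promoters (red) and peak-free promoters without CpG-island sequence (grey) in replicates A (solid), B1 (dashed) and B2 (dotted). The curves of both classes lie close together and cross 50% between 49.6 and 61.4 kb.

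A peak between 1 and 10 kb from the TSSs was present for 13.1%, 12.02% and 11.6% of peak-free CpG-island promoter genes in A, B1 and B2, or 12.2% ± 0.774 (SD, n = 3). Bound CpG-island promoter genes had such an additional peak in 23.6%, 22.2% and 21.5%, or 22.5% ± 1.05, and the replicate values of both classes did not overlap. The difference of −10.2 percentage points ± 0.280 had the same direction in 3 of 3 replicates. Flipping the signs of the replicates in an exact permutation test (two-sided) gave p = 0.25, the smallest p that 3 replicates allow. The 3 lists together define both classes, so the replicate differences come from 1 division of the genes. Their shared direction is therefore not independent support. Any 3 differences of the same sign give this p-value, whatever their spread. No source states whether the replicates came from separate cultures, so the spread between these samples may be technical. The sample titles name an input for replicate A and another for replicate B, the letter that B1 and B2 share. Whether B1 and B2 are more closely related to each other than to A is not stated. For genes with a single TSS, which have 1 window of the same length each, the shares were 9.98% ± 1.04 and 22.6% ± 0.587. When peaks within 1 kb of any annotated TSS of any gene were set aside, 3.88% ± 0.617 of peak-free and 5.68% ± 0.893 of bound genes had a peak at 1 to 10 kb, and peak-free promoters without CpG-island sequence had 3.03% ± 0.415.

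**Figure D5:**
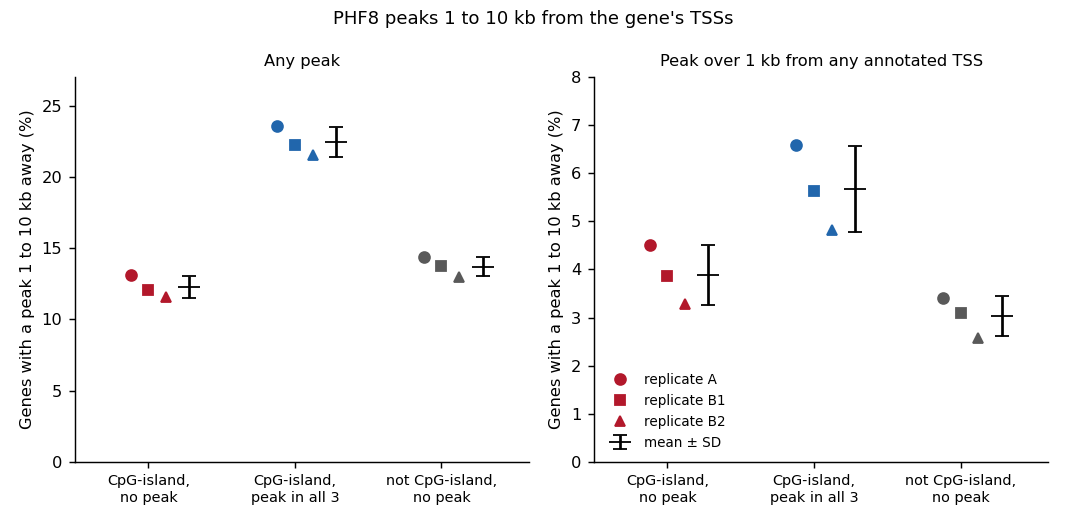
Percentage of genes with a PHF8 peak 1 to 10 kb from their TSSs (y axes) for peak-free CpG-island promoters, CpG-island promoters with a peak in all 3 replicates, and peak-free promoters without CpG-island sequence; points are replicates A, B1 and B2 and black bars the mean ± SD (n = 3), with any peak on the left and peaks over 1 kb from any annotated TSS on the right. On the left the 3 peak-free CpG-island values lie between 11.6% and 13.1% and the bound values between 21.5% and 23.6%.

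The strength of peaks at 1 to 10 kb and away from all TSSs differed from that of other such peaks by less than the spread between replicates. Near peak-free promoters 107, 97 and 74 such peaks had a median fold enrichment of 7.01, 5.80 and 5.64, and the remaining 2828, 2286 and 1928 had 6.63, 5.63 and 5.69. The mean difference on the log2 scale was 0.04 ± 0.05 (SD, n = 3), positive in A and B1 and negative in B2, with p = 0.5 in the same exact permutation test.

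In all 3 replicates, 196 peak-free genes had an overlapping peak at 1 to 10 kb. For 155 of them this peak lay at a TSS of another gene and for 41 at none. By the mean over replicates of its percentile rank in fold enrichment, the strongest of these neighbouring peaks stood by CPT1B, a muscle carnitine palmitoyltransferase gene on chromosome 22, with a fold enrichment of 71.7, 36.3 and 37.1 in A, B1 and B2 at the adjoining CHKB promoter. The peak at the DMWD promoter, 6705 bp from ENSG00000268434, had a lower fold enrichment in A and a higher one in B1 and B2, with 48.4, 41.6 and 45.7. By mean rank, KISS1R, the kisspeptin receptor gene, followed with 65.8, 38.5 and 36.1 at the R3HDM4 promoter, then SCRT1 with 61.9, 38.2 and 34.5 at DGAT1, ZNF296 with 65.5, 39.2 and 33.0 at GEMIN7 and MARK4, and SLC9A3 with 57.3, 35.3 and 35.4 at PP7080. The summits of these promoter peaks lay 2918 to 9309 bp from an annotated TSS of the peak-free gene. For SLC9A3 that TSS, 9252 bp away, was not the gene-record 5′ end with the CpG-island sequence. That end is at position 524564 of chromosome 5, and the peak spans 472713 to 473880 inside the gene.

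The strongest shared peaks at no annotated TSS lay by TMEM52, with a fold enrichment of 54.2, 31.0 and 28.3, BHLHA9 with 44.4, 25.2 and 21.4, CROCC with 42.5, 24.2 and 22.7, SLC30A2 with 34.7, 22.2 and 23.3, and TMDD1 with 35.5, 19.8 and 16.0. The peak by BHLHA9, a limb development factor gene, spans chr17:1171218-1172133, with its summit 2297 bp from the TSS. The peak named for CROCC lies inside the gene, 7633 bp from an annotated TSS other than the gene-record 5′ end. It starts at position 17240592 of chromosome 1, whereas that end is at 17066768. These genes were named after the values of all peaks at no TSS had been seen. Inside the gene body, beyond the TSS windows, 141, 125 and 124 peak-free genes (7.57%, 6.71% and 6.66%) had a peak in A, B1 and B2. For 81, 72 and 68 genes such a peak lay over 1 kb from every annotated TSS of any gene. The same share was not taken for bound genes, so nothing is read from these counts.

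Along the chromosomes, peak-free genes stood both alone and in runs. In the order of CpG-island promoter genes, 1070 of the 1863 genes or 57.4% had no peak-free neighbour. There were 230 runs of 2, 59 of 3 and 33 longer ones. No random order was drawn for comparison, so these counts do not show whether peak-free genes were scattered or clustered. The longest run held 7 genes on chromosome 13, from PCDH8 over 5 PRR20 copies to PCDH17, with 5 of the 7 windows below 90% unique 32-mers. Runs of 6 genes included CD8A to FOXI3 and RGPD3 to SLC5A7, both on chromosome 2 and both with 4 windows below 90%. NKX6-2, CFAP46, ADGRA1, KNDC1, UTF1 and ADAM8 formed a run of 6 on chromosome 10 with no such window, and KCNA6, KCNA1, KCNA5, NTF3 and PLEKHG6 a run of 5 on chromosome 12, also with none. The latter runs were chosen for their unique windows after the values were seen. Neighbouring genes can share a promoter, and the 1863 genes stood for 1806 distinct loci.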

How the data were processed

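PHF8 ChIP-seq peak lists of 3 SKMEL-147 replicates were analysed; 2 inputs are not analysed here. The authors aligned reads to hg19 with Bowtie2 (bcl2fastq and Picard are also named in the submitters' processing notes) and called narrow peaks with MACS for each replicate separately against input, with cutoffs of 1.5 for fold enrichment and 0.05 for the q-value (read here as an upper limit). The deposited values are fold enrichment (a linear ratio), −log10 p-values and q-values, and a score, which was not used. Read totals, and thus depth, are unknown, and the treatment of duplicates is not given in the sources used here.

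TSSs came from GENCODE release 44 lifted to GRCh37, and base composition and 32-mers from the GRCh37 sequence. The genes, gene lists (33, plus 8 added later) and 11 motifs were chosen with earlier results of these data known, so shares by class carry no test. Wilson 95% intervals cover counting error over genes only. Differences in peaks at 1 to 10 kb were tested by flipping replicate signs in an exact permutation test (two-sided). A motif counted once per 500 bp window. The code was tested on simulated peaks. Named genes were the up to 3 peak-free genes of each list with the highest observed/expected CpG ratio, the 5 with the most CpG dinucleotides, 3 on either side of each threshold, the 5 with the strongest shared peak at 1 to 10 kb and the 3 longest runs; others, bound genes included, were named after their values were seen, and some items picked by these choices are not reported here. Alternatives were a stricter q-value or fold enrichment, other windows and TSSs, summits, other CpG thresholds, unique windows only, a majority of replicates, each replicate left out and, chosen after seeing the data, genes with 1 TSS. Python 3.11.15, numpy 2.4.6, pandas 2.3.3, scipy 1.17.1 and matplotlib 3.10.9 were used.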

Additional observations from a re-analysis of the deposited data

How the results depend on the processing

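Differences given here are peak-free minus bound CpG-island promoters, except the log2 difference, which compares peaks. The number of genes was judged by a fixed range and the results at 1 to 10 kb by their sign. The others were set against the SD over the 3 replicates taken one at a time. This SD was 0.697 points for the percentage and 0.00176 for the CpG ratio. It was 0.0548 points for divergent promoters, 0.145 points for ETS, and 0 for extent and TSS number. The number of peak-free genes ranged from 1624 to 2069 over the alternatives other than genes with 1 annotated TSS, which left 421, or 36.6% of such genes. The percentage was 18.1% with the gene-record 5′ end only, 15.2% with a 1 kb sequence window, 15.4% in unique windows, and 17.6% when no peak in at least 2 of 3 replicates was asked for, and it ranged from 16.3% to 17.2% when 1 replicate was left out. The difference in observed/expected CpG, −0.0503, was −0.0537 with the gene-record 5′ end, −0.0337 with the 1 kb sequence window, −0.0376 with CpG thresholds of 0.55 and 0.65, and −0.0472 in unique windows, and from −0.0518 to −0.0494 without 1 replicate. The difference in CpG-rich extent was −50 bp under every alternative. The difference in median TSS number, −4.0, was −3.5 with the 1 kb sequence window, −3.0 with 2 kb TSS windows, the gene-record 5′ end, the stricter CpG thresholds or the majority of replicates, from −4.0 to −3.0 without 1 replicate, and 0 by construction for genes with 1 TSS.

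For divergent promoters, −18.4 percentage points became −18.5 at a q-value below 0.001 and −18.5 at a fold enrichment above 4, −17.9 with the gene-record 5′ end, −18.2 with the 1 kb sequence window, −18.0 with the stricter CpG thresholds, −18.8 in unique windows, −17.9 with the majority of replicates, −16.1 for genes with 1 TSS, and −18.3 to −18.2 without 1 replicate. The ETS difference, −9.55 points, was −9.85 with the stricter CpG thresholds, −9.75 in unique windows and −8.37 for genes with 1 TSS, and from −9.64 to −9.47 without 1 replicate. The difference in peaks at 1 to 10 kb kept its sign throughout, from −14.2 with 500 bp TSS windows to −8.77 with the gene-record 5′ end, and from −10.3 to −9.84 without 1 replicate. The log2 difference in their fold enrichment changed sign in unique windows, at −0.0035, and ranged from 0.01 to 0.06 without 1 replicate and up to 0.16 for genes with 1 TSS; 3 replicates cannot give a p below 0.25, and the cause of the changed sign was not tested.

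No paired analysis was possible because only 1 group has peak lists. The depth is unknown, and the smallest listed fold enrichment was 2.42, 2.07 and 2.47 in A, B1 and B2, so weaker enrichment was not visible. Promoters with few unique 32-mers offer few assignable positions, whose part was not tested, and TSS number follows the annotation. Peak-free describes 1 cell line, 1 antibody and 3 lists. No result met the criteria for a closer look, since each group has under 4 samples and 1 condition was measured.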
